A study of Danio rerio with 45 samples.

Results

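Wild-type zebrafish embryos were compared at 5.3 and 4.5 hours post fertilization (hpf), the interval that leads from the late blastula to the onset of gastrulation. The comparison rests on 6 libraries, 3 of each age, taken from 15 wild-type libraries of 5 ages and 45 libraries in all. The table holds 31966 genes. Of these, 17348 had at least 1 FPKM (fragment counts scaled for transcript length and library size) in at least 3 of the 15 wild-type libraries and were tested. The wild-type embryos were of strain AB/PS, and every library was made from ribosome-depleted total RNA of 100 pooled whole embryos that had been staged by eye. The other libraries of the series came from embryos injected with a morpholino (an antisense oligonucleotide) against the cohesin subunit Rad21 or against the insulator protein CTCF. The sources used here do not say whether the wild-type embryos received an injection, nor whether the pools of 1 age came from separate clutches. The p-values therefore measure the spread between pools of an age, which may be technical. That spread was taken over all 5 ages, so a gene's spread at other ages also enters its p-value. The table numbers the columns of each age 0, 1 and 2. In RNA from whole embryos, fewer cells of a type and less RNA per cell cannot be told apart.

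Before the midblastula transition a zebrafish embryo runs on RNA and protein that the mother stored in the egg. The embryo's own genome is then switched on, with Pou5f1, Nanog and SoxB1 proteins as the main activators, and maternal transcripts are removed. At the blastula margin Nodal, FGF and Wnt signals induce mesoderm and endoderm, BMP signals pattern the ventral side, and secreted antagonists from the dorsal organizer restrict them. Meanwhile the outermost cells form the enveloping layer, an epithelial sheet, and marginal cells fuse into the yolk syncytial layer, before cells spread over the yolk and move inwards.

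Between 4.5 and 5.3 hpf, 2467 genes (14.2% of those tested) were called higher and 1782 (10.3%) lower, together 24.5%. Calls are at an adjusted p below 0.05 in limma's moderated test on log2(FPKM + 1), fitted to all 15 wild-type libraries. A log2 change is given ± its standard error. A fit to only the 6 libraries compared called 1357 genes. It has fewer residual degrees of freedom and takes the spread from these libraries alone. Calls of named genes that were lost there are given below as lost in the 6-library fit. The change was at least 2-fold for 695 of the genes called higher and for 192 of those called lower. The group libraries did not overlap for 36.9% of the genes tested. The median change of all genes was 0.019 on the log2 scale. The number of calls depended on single libraries: it was 2564 without column 0 at 4.5 hpf, 2818 without column 0 at 5.3 hpf and 2706 without column 1 at 5.3 hpf.

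The direction of small changes depended on how the libraries were scaled. The FPKM values summed to between 1111849 and 1207934 in the 4.5 hpf libraries and to between 1386743 and 1539678 in the 5.3 hpf libraries. Rescaled to a common sum of 1e6, 867 genes were called higher and 3558 lower, with a median change of -0.19. Rescaled to the sum without small RNAs, 868 were called higher and 3775 lower, with a median of -0.21. Quantile normalization gave 1697 higher and 1908 lower, with a median of -0.029. The table also lists 92 ERCC spike-in transcripts, synthetic RNAs of known sequence whose use and amount the sources used here do not describe. After rescaling to 46 of them, 409 genes were called higher and 3938 lower, with a median of -0.37. Under all 5 scalings, 409 genes were called higher and 1653 lower. Of the genes called as deposited, 0 were called in the opposite direction under another scaling. In what follows, "under every scaling" refers to all 5 scalings. Each of the other 4 lowered the median change, so this condition is weak for falls. Of the 1782 genes called lower as deposited, 1653 met it. For rises it amounts to a call after rescaling to the spike-ins, where the same number, 409, was called higher.

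**Figure D1:**
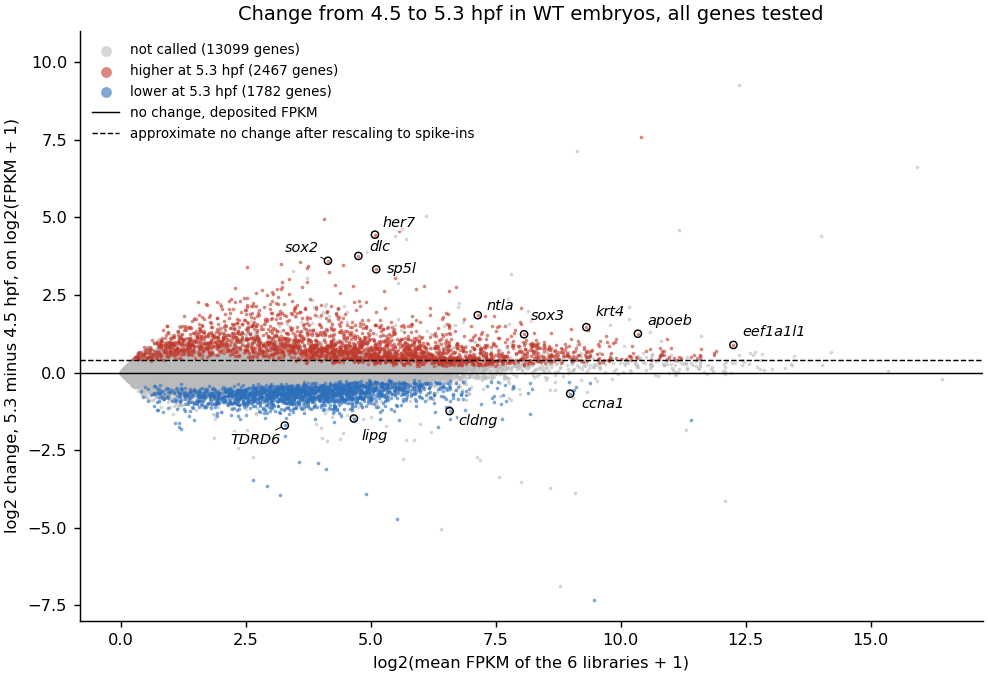
Each point is 1 of the 17348 genes tested, with log2(mean FPKM + 1) over the 6 libraries on the horizontal axis and the log2 change from 4.5 to 5.3 hpf on the vertical axis; red genes were called higher and blue genes lower. The solid line marks no change in the deposited FPKM. The dashed line marks only approximately where no change would lie after rescaling to the spike-ins. It rests on the shift in the median of all genes. Genes far above 1 FPKM shift by more, near the mean spike-in rise of 0.589. Of the 8 genes beyond 5 log2 units, 6 are small-RNA loci.

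Libraries of 1 age did not stand at equal positions along the course from 3.3 to 10 hpf. Placed on a line from the wild-type mean at 3.3 hpf (position 0) to that at 10 hpf (position 1) over 9736 genes, the 4.5 hpf libraries stood at 0.226, 0.295 and 0.25 and the 5.3 hpf libraries at 0.435, 0.436 and 0.371, in column order. Column 1 at 4.5 hpf thus had the highest position of its age and column 2 at 5.3 hpf the lowest of its age. Column 1 at 4.5 hpf also had the highest FPKM sum of its age (1207934) and column 2 at 5.3 hpf the lowest (1386743). Whether staging or scaling set these positions was not tested. Many genes below follow the order of the positions, but those that differ by at least 1 log2 unit between 3.3 and 10 hpf also entered them. With column 1 at 4.5 hpf and column 2 at 5.3 hpf both left out, 4845 genes were called in place of 4249. The spike-in rows fell into 2 sets of libraries with different ratios between spike-ins, 1 of them holding column 0 at 4.5 hpf and column 2 at 5.3 hpf. From 4.5 to 5.3 hpf the mean log2 level of the spike-ins rose by 0.389 in that set and by 0.689 in the other. The rescaling to the spike-ins used a mean rise of 0.589. Changes near 0 after that rescaling therefore have no certain sign. With the set as a block, 4391 genes were called. Correlations between the log2 values of libraries lay between 0.96 and 0.971 within an age and between 0.928 and 0.961 across the 2 ages. The deposited FPKM carry no counts, so the sequencing depth is unknown. Of 41 marker genes of ovarian somatic cells and of tissues that form after gastrulation, 15 passed the filter. Limma called 0 of them, and 1 had an unadjusted p below 0.05. Several passed only through the 10 hpf libraries, such as gfap, and for these a call could hardly arise.

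Genes of the mesoderm at the margin supplied many of the largest rises. Of 31 mesoderm genes tested, 19 (61.3%) were called higher and 1 (3.23%) lower, against 14.2% and 10.3% of all genes tested. The mesoderm genes had a median change of 0.97 as deposited and 0.39 after rescaling to the spike-ins. Under every scaling 14 remained higher and 1 lower. her7, a repressor of the segmentation clock that later oscillates in the presomitic mesoderm (chromosome 5, 71711884 to 71713200 in Zv9), measured 0, 17.2 and 0.212 FPKM at 4.5 hpf and 59.2, 59.7 and 61 at 5.3 hpf. The 5.3 hpf libraries were alike and far above every 4.5 hpf library, among which only column 1 had a clear signal (log2 change 4.44 ± 0.78, adjusted p = 0.00177). The neighbouring clock gene her1 (chromosome 5, 71693372 to 71700454) showed the same split at a lower level, with 0, 4.37 and 0.125 FPKM at 4.5 hpf and 11.2, 10.2 and 10.3 at 5.3 hpf (log2 change 2.67 ± 0.60, adjusted p = 0.00644). The Notch ligand dlc, which acts with these repressors in the clock, measured 0.381, 14.2 and 1.07 FPKM at 4.5 hpf and 42.7, 53.3 and 44.2 at 5.3 hpf (log2 change 3.76 ± 0.62, adjusted p = 0.00131). A second Notch ligand, dld, went from 1.92, 7.69 and 2.8 to 34.3, 42.2 and 21.9 FPKM (adjusted p = 0.000257). her7, her1 and dlc lost their calls in the 6-library fit.

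Factors of the future somites appeared at the same time. mespaa (chromosome 7, 16098652 to 16101163), a basic helix-loop-helix factor of the anterior presomitic mesoderm, measured 0.254, 0.27 and 0.554 FPKM at 4.5 hpf and 18.1, 23.3 and 6.75 at 5.3 hpf, so no library at 4.5 hpf reached 1 FPKM (log2 change 3.50 ± 0.41, adjusted p = 0.00026). Its paralog mespab (chromosome 25, 11382067 to 11383326) measured 0, 2.83 and 0.264 FPKM at 4.5 hpf and 23.6, 28.9 and 10.0 at 5.3 hpf (log2 change 3.57 ± 0.45, adjusted p = 0.00036). For both, column 2 at 5.3 hpf was the lowest of its age but still above every 4.5 hpf library. msgn1, which directs presomitic fate, rose from 0.597, 2.97 and 2.61 to 28.9, 25.7 and 7.66 FPKM (log2 change 2.75 ± 0.43, adjusted p = 0.0011). ripply1, a later repressor at somite borders, rose from 0.803, 2 and 0.584 to 13.5, 18.3 and 4.5 FPKM (log2 change 2.49 ± 0.40). pcdh8, the paraxial protocadherin, rose from 2.55, 8.99 and 4.48 to 36.6, 44.1 and 22.1 FPKM (log2 change 2.55 ± 0.31). For these genes the groups of libraries did not overlap, which mespaa, mespab and msgn1 had to meet to count among the largest rises. Each gene was called under every scaling. msgn1 and ripply1 lost theirs in the 6-library fit.

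Among the T-box factors, which turn marginal signals into mesodermal fate, the directions differed. ntla, the zebrafish Brachyury gene "no tail" (chromosome 19, 30633856 to 30637909), measured 36.4, 113 and 47 FPKM at 4.5 hpf and 235, 245 and 164 at 5.3 hpf; the highest 4.5 hpf library lay below every 5.3 hpf library (log2 change 1.85 ± 0.32, adjusted p = 0.00159). Its paralog ntlb began from below 1 FPKM in each 4.5 hpf library and reached 3.95, 5.35 and 1.72 FPKM at 5.3 hpf (log2 change 1.84 ± 0.26, adjusted p = 0.000636). tbx16, the gene "spadetail" needed for trunk mesoderm, was already at 188 FPKM on average and reached 287 FPKM (log2 change 0.61 ± 0.19, adjusted p = 0.0294). The maternally supplied eomesa, which acts upstream of endoderm genes, fell from 24, 19.3 and 22.9 to 12.5, 10.2 and 13.2 FPKM (log2 change -0.83 ± 0.14, adjusted p = 0.00155). The posterior homeobox genes eve1 (chromosome 3, 23933175 to 23935071) and cdx4 (chromosome 14, 33816790 to 33820242) rose with ntla: eve1 measured 2.64, 19.9 and 7.18 FPKM at 4.5 hpf and 94.7, 101 and 35.3 at 5.3 hpf. The cdx4 values were 0.25, 2.55 and 1.31 FPKM at 4.5 hpf and 28.9, 29.1 and 11.8 at 5.3 hpf. Their log2 changes were 3.05 ± 0.50 and 3.38 ± 0.37. snai1a, a repressor of epithelial adhesion genes, measured 126 ± 28.1 FPKM at 4.5 hpf and 187 ± 14.9 FPKM at 5.3 hpf (± SD, n = 3; log2 change 0.59 ± 0.15). The calls of tbx16 and snai1a were made in 1 of the 5 scalings only, the deposited one, and were lost on leaving out 1 library: tbx16 (adjusted p up to 0.114 without 4.5 hpf columns 0 or 2 or 5.3 hpf columns 0 or 1) and snai1a (adjusted p up to 0.0682 without 4.5 hpf columns 0 or 2 or 5.3 hpf column 0). In the 6-library fit ntla, eve1 and snai1a lost the call, and with a pseudocount of 0.1 tbx16 and eomesa did.

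Of the 13 Nodal pathway genes tested, 3 (23.1%) were called higher and 1 (7.69%) lower, against 14.2% and 10.3% of all genes tested. Limma called 0 of the 4 ligand genes tested, and 0 had an unadjusted p below 0.05. ndr1 (squint), a main mesoderm-inducing ligand, measured 17.9, 25 and 15.9 FPKM at 4.5 hpf and 15.5, 24.1 and 22 at 5.3 hpf, with overlapping groups (log2 change 0.064 ± 0.23, adjusted p = 0.882). The antagonist lft2 rose from 29, 46.7 and 35.2 to 55.3, 68.5 and 63.5 FPKM (log2 change 0.76 ± 0.19, adjusted p = 0.0118). For lft1 the groups overlapped, at 32.2, 51.2 and 28.3 FPKM at 4.5 hpf and 46.2, 77.1 and 58.5 at 5.3 hpf (log2 change 0.70 ± 0.30, adjusted p = 0.109). Of the intracellular mediators, the transcription factor foxh1 measured 70.2, 90.3 and 74.7 FPKM at 4.5 hpf and 112, 121 and 99.5 at 5.3 hpf (log2 change 0.50 ± 0.13, adjusted p = 0.016). The gene smad2, whose product carries the receptor's signal to it, measured 35.7, 30.0 and 28.8 FPKM at 4.5 hpf and 18.2, 17.6 and 28 at 5.3 hpf (log2 change -0.57 ± 0.16, adjusted p = 0.0176). The median change of the pathway was 0.11 as deposited and -0.13 after rescaling to the spike-ins. smad2 kept its call under every scaling, and lft2 and foxh1 did not. Leaving out 1 library ended these calls: lft2 (adjusted p up to 0.0611 without 4.5 hpf column 0 or 5.3 hpf column 1), foxh1 (adjusted p up to 0.074 without 4.5 hpf columns 0 or 2 or 5.3 hpf columns 0 or 1) and smad2 (adjusted p up to 0.0799 without 4.5 hpf column 0 or 5.3 hpf columns 0 or 1). The 6-library fit ended all 3 calls, and a pseudocount of 0.1 that of lft2.

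Endoderm regulators rose without exception among those called. Of 8 tested, 4 (50%) were called higher and 0 lower, against 14.2% and 10.3% of all genes tested. The median change of the 8 was 0.80 (after rescaling to the spike-ins 0.30). sox32 (chromosome 7, 65340358 to 65342023), the Sox factor that commits marginal cells to endoderm, measured 20.8, 59.2 and 42.1 FPKM at 4.5 hpf and 160.2, 135 and 93.7 at 5.3 hpf; the lowest 5.3 hpf library lay above the highest 4.5 hpf library (log2 change 1.73 ± 0.30, adjusted p = 0.00176). The homeobox gene bon, which acts before sox32, rose from 26.3, 45.5 and 30.4 to 64.8, 76.8 and 57.1 FPKM (log2 change 0.97 ± 0.26, adjusted p = 0.017). The zinc-finger gene gata5 rose from 12.3, 27.7 and 15 to 37.7, 38.8 and 32.2 FPKM (log2 change 1.02 ± 0.24, adjusted p = 0.00883). sox32 was the 1 member called higher under every scaling. The call of bon depended on single libraries: bon (adjusted p up to 0.0795 without 4.5 hpf columns 0 or 2 or 5.3 hpf column 1). sox32, bon and gata5 were not called in the 6-library fit, nor bon and gata5 with a pseudocount of 0.1.

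Of 24 organizer genes tested, 9 (37.5%) were called higher and 0 lower, against 14.2% and 10.3% of all genes tested. The median change of the organizer genes was 0.48 (after rescaling to the spike-ins 0.18). lhx1a, a LIM homeobox gene of the organizer, measured 4.63, 19.3 and 7.17 FPKM at 4.5 hpf and 47.1, 51.8 and 30.0 at 5.3 hpf (log2 change 2.13 ± 0.42, adjusted p = 0.00344). dkk1b, a secreted Wnt antagonist needed for head formation, measured 17.6, 27.4 and 26.2 FPKM at 4.5 hpf and 64.5, 57 and 66.9 at 5.3 hpf (log2 change 1.39 ± 0.17, adjusted p = 0.00033). In both genes every 5.3 hpf library stood above every 4.5 hpf library, and both were called under every scaling. gsc (goosecoid), the homeobox gene that marks the organizer, measured 31.6, 46.2 and 35.8 FPKM at 4.5 hpf and 59.5, 78.9 and 58.5 at 5.3 hpf (log2 change 0.78 ± 0.26, adjusted p = 0.0429). Its call held in the deposited scaling alone and was lost on leaving out any 1 of 5 libraries: gsc (adjusted p up to 0.156 without 4.5 hpf columns 0 or 2 or 5.3 hpf columns 0, 1 or 2). chd (chordin), the main secreted BMP antagonist, measured 41.4, 62 and 45.1 FPKM at 4.5 hpf and 73.6, 72 and 63.1 at 5.3 hpf; the groups did not overlap, but the change did not pass the threshold (log2 change 0.50 ± 0.18, adjusted p = 0.0616). lhx1a and gsc were not called in the 6-library fit, nor gsc with a pseudocount of 0.1 or without the filter.

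On the ventral side, 9 of 24 BMP pathway genes (37.5%) were called higher and 0 lower, against 14.2% and 10.3% of all genes tested. The median change of the pathway was 0.37, which turned to -0.035 after rescaling to the spike-ins. The ligands differed. bmp4 (chromosome 17, 51094183 to 51116249) measured 1.22, 6.98 and 3.14 FPKM at 4.5 hpf and 24.3, 28.7 and 12.5 at 5.3 hpf (log2 change 2.37 ± 0.38, adjusted p = 0.00113). A further ligand, bmp7a, measured 37, 39.7 and 36.4 FPKM at 4.5 hpf and 81, 94.3 and 55.2 at 5.3 hpf (log2 change 0.98 ± 0.19, adjusted p = 0.00319). bmp2b, the ligand that together with bmp7a is needed for ventral fates, measured 61.8, 55.7 and 62.3 FPKM at 4.5 hpf and 75.6, 82 and 62.3 at 5.3 hpf, with overlapping groups (log2 change 0.28 ± 0.19, adjusted p = 0.331). Among targets and modulators, vent, a ventral homeobox repressor of organizer genes, rose from 42, 58.3 and 55.5 to 109, 114 and 86 FPKM (log2 change 0.98 ± 0.16). id3, an inhibitor of helix-loop-helix factors that BMP signals induce, rose from 17.8, 31 and 23.4 to 69.1, 102 and 49 FPKM (log2 change 1.54 ± 0.25). bmper, a secreted BMP modulator, rose from 2.81, 2.03 and 2.19 to 9.57, 10.4 and 6.1 FPKM (log2 change 1.51 ± 0.21). bmp4, id3 and bmper were called under every scaling, bmp7a and vent under 4. bmp4 lost its call in the 6-library fit.

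Wnt pathway genes rose where they were called. Of 25 Wnt pathway genes, 9 (36%) were called higher and 0 lower, against 14.2% and 10.3% of all genes tested. The median change of the pathway was 0.39 (after rescaling to the spike-ins 0.037). wnt8a, the ligand of the ventrolateral margin, measured 53.8, 52.8 and 50.8 FPKM at 4.5 hpf and 53.8, 59.7 and 49 at 5.3 hpf (log2 change 0.041 ± 0.13, adjusted p = 0.867); after rescaling to the spike-ins it was called lower (log2 change -0.53, adjusted p = 0.0483). sp5l (chromosome 23, 28267501 to 28270357), a zinc-finger transcription factor that mediates wnt8 signals, measured 2.54, 11.4 and 3.41 FPKM at 4.5 hpf and 72.6, 78.3 and 32.7 at 5.3 hpf (log2 change 3.33 ± 0.40, adjusted p = 0.000318). Its relative sp5 measured 4.15, 7.07 and 6.62 FPKM at 4.5 hpf and 18.7, 17.6 and 11.9 at 5.3 hpf (log2 change 1.30 ± 0.21, adjusted p = 0.00125). An intracellular inhibitor that the pathway induces, nkd1, rose from 0.569, 1.97 and 2.17 to 5.25, 4.76 and 4.42 FPKM (log2 change 1.24 ± 0.24). The ligands of cell movement also rose: wnt5b went from 1.17, 3.24 and 1.03 to 12.5, 12.5 and 7.14 FPKM (log2 change 2.105 ± 0.27, adjusted p = 0.000404). Likewise wnt11 went from 86.3, 154 and 86.7 to 165, 198 and 187 FPKM (log2 change 0.80 ± 0.21, adjusted p = 0.0167). The wnt11 call was lost under the other 4 scalings and on leaving out 1 library: wnt11 (adjusted p up to 0.0794 without 4.5 hpf columns 0 or 2 or 5.3 hpf column 1). nkd1 and wnt11 lost the call in the 6-library fit, and nkd1 also after rescaling to the spike-ins.

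Of 26 FGF pathway genes, 11 (42.3%) were called higher and 1 (3.85%) lower, against 14.2% and 10.3% of all genes tested. The median change of the FGF genes was 0.56 (after rescaling to the spike-ins 0.085). Under every scaling 2 remained higher and 1 lower. dusp6, a phosphatase that FGF signals induce and that dampens them, measured 31.7, 58.4 and 39 FPKM at 4.5 hpf and 123, 146 and 84.4 at 5.3 hpf (log2 change 1.44 ± 0.23, adjusted p = 0.00114). spry2, another feedback inhibitor, rose from 13.7, 21.8 and 15.7 to 36.8, 36.8 and 29.2 FPKM (log2 change 0.98 ± 0.22). Among the ligands, fgf24 rose from 1.33, 5.51 and 1.3 to 9.96, 8.57 and 6.68 FPKM (log2 change 1.51 ± 0.33, adjusted p = 0.00618). The groups overlapped for fgf8a, at 31.5, 56.1 and 37.5 FPKM at 4.5 hpf and 55.2, 71.4 and 63.5 at 5.3 hpf (log2 change 0.62 ± 0.39, adjusted p = 0.27). The fgf24 call was lost in the 6-library fit and the spry2 call after rescaling to the spike-ins. In the retinoic acid pathway, the synthesis enzyme aldh1a2 (chromosome 7, 31622421 to 31742987) measured 0.559, 2.63 and 0.482 FPKM at 4.5 hpf and 18.5, 20.7 and 7.36 at 5.3 hpf (log2 change 2.91 ± 0.37, adjusted p = 0.000424). The reductase gene dhrs3b, whose product lowers retinaldehyde, measured 1.56, 1.45 and 1.35 FPKM at 4.5 hpf and 8.86, 12.6 and 4.96 at 5.3 hpf (log2 change 1.92 ± 0.24, adjusted p = 0.000401). Both were called under every scaling. In all, 4 of 15 retinoic acid genes (26.7%) were called higher and 0 lower, against 14.2% and 10.3% of all genes tested.

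**Figure D2:**
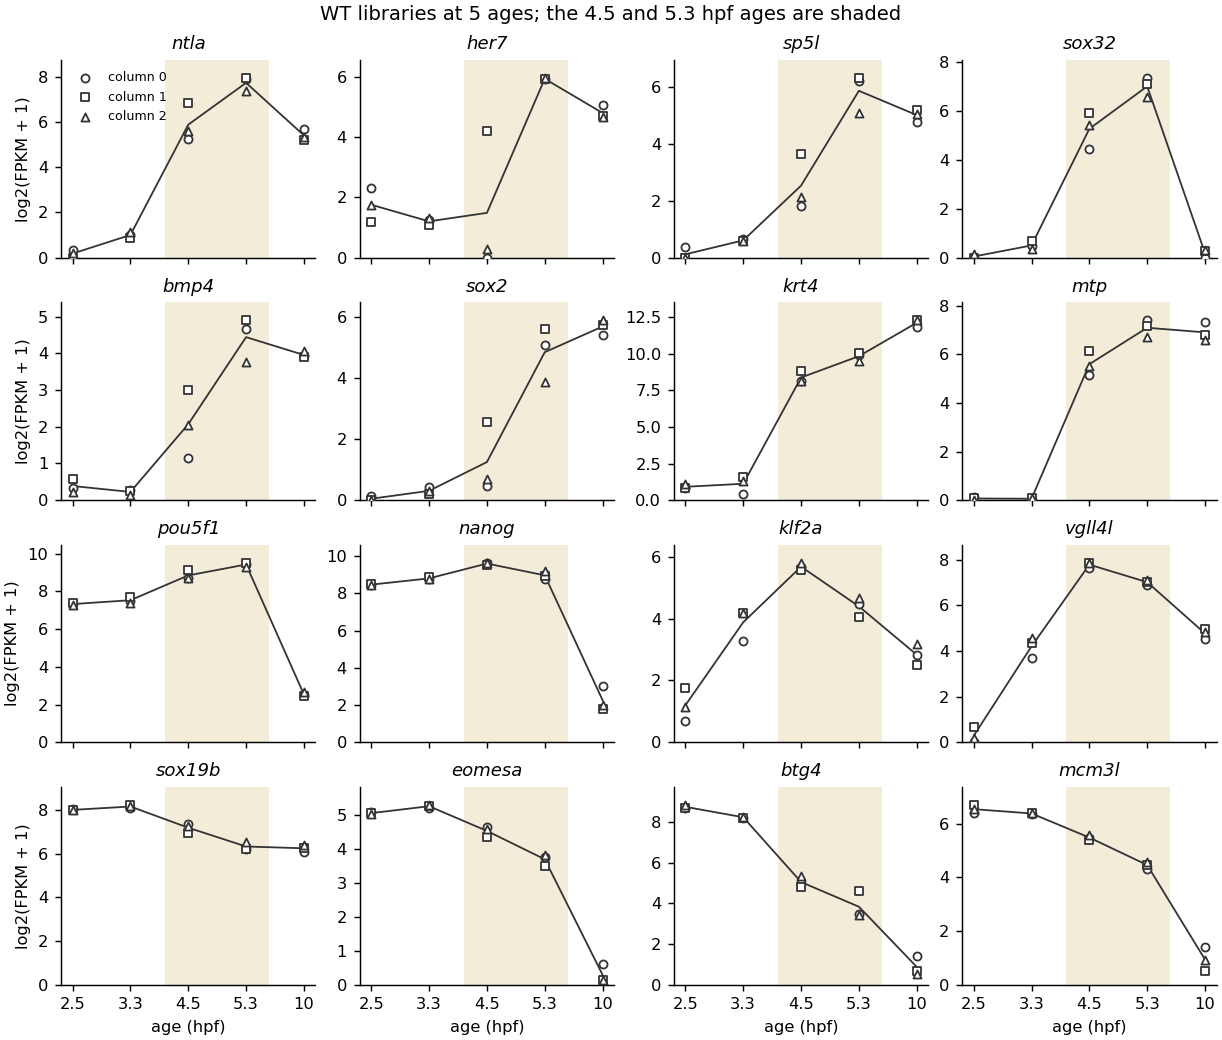
Each panel shows 1 gene as log2(FPKM + 1) in the 15 wild-type libraries at 5 ages, with 1 symbol per library column and a line through the age means; the shaded band holds 4.5 and 5.3 hpf. The first 2 rows hold genes called higher, such as ntla and her7, and the lower rows hold pou5f1 (higher), nanog (not called) and genes called lower.

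Of 49 neural genes tested, 7 (14.3%) were called higher and 3 (6.12%) lower, against 14.2% and 10.3% of all genes tested. sox2 (chromosome 22, 40333145 to 40512173), the SoxB1 gene of the neural plate, measured 0.385, 4.91 and 0.631 FPKM at 4.5 hpf and 32.6, 48 and 13.5 at 5.3 hpf, with every 5.3 hpf library above every 4.5 hpf library (log2 change 3.60 ± 0.48, adjusted p = 0.000518). sox3, another SoxB1 gene, was already expressed and measured 124, 219 and 142 FPKM at 4.5 hpf and 367, 431 and 319 at 5.3 hpf (log2 change 1.23 ± 0.18, adjusted p = 0.000851). sox19b, the SoxB1 gene supplied by the mother, moved the other way, at 163, 124 and 153 FPKM at 4.5 hpf and 74.2, 73.7 and 92.5 at 5.3 hpf (log2 change -0.86 ± 0.12, adjusted p = 0.000549). The forebrain factor otx1a rose from 2.52, 7.13 and 2.75 to 19.3, 21.4 and 12.8 FPKM (log2 change 1.95 ± 0.30). The zinc-finger gene zic2a rose from 7.06, 14 and 8.05 to 32.5, 28.3 and 18.7 FPKM (log2 change 1.38 ± 0.23). The Notch-related repressors her3 and her5 moved apart: her3 measured 2.48, 2.9 and 2.7 FPKM at 4.5 hpf and 10.9, 17.2 and 11 at 5.3 hpf (log2 change 1.90 ± 0.21, adjusted p = 0.000234). For her5 the values were 105, 76.5 and 123 FPKM at 4.5 hpf and 45.5, 49 and 54 at 5.3 hpf (log2 change -0.997 ± 0.27, adjusted p = 0.0172). The her5 call was lost on leaving out 1 library: her5 (adjusted p up to 0.0711 without 4.5 hpf columns 0 or 2 or 5.3 hpf columns 0 or 1). The other genes of this paragraph kept their calls under every scaling. Limma called 0 of 36 hox cluster genes, and 0 had an unadjusted p below 0.05. These genes were near the floor at both ages, with a highest mean of 1.08 FPKM, for hoxc11a at 4.5 hpf. Most passed the filter through the 10 hpf libraries, as hoxb9a with a mean of 50.5 FPKM there, so a call could hardly arise. zic2a lost its call in the 6-library fit.

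In the epidermal and border list, 5 of 25 genes (20%) were called higher and 1 (4%) lower. Of all genes tested the shares were 14.2% and 10.3%. The transcription factor tfap2c, which acts in non-neural ectoderm, rose from 11.8, 13.4 and 8.48 to 23.4, 29.6 and 18.5 FPKM (log2 change 1.02 ± 0.22, adjusted p = 0.0052). The homeobox gene msxb of the neural plate border rose from 1.9, 2.33 and 1.92 to 7.67, 7.52 and 4.76 FPKM (log2 change 1.30 ± 0.21, adjusted p = 0.00125). klf2a, a Krüppel-like zinc-finger gene (chromosome 22, 16044380 to 16047079), was the member called lower, at 49.9, 45.9 and 54.8 FPKM at 4.5 hpf and 21.1, 15.4 and 24.6 at 5.3 hpf, with every 5.3 hpf library below every 4.5 hpf library (log2 change -1.28 ± 0.29, adjusted p = 0.00729). Its mean had been 1.4 FPKM at 2.5 hpf and 14.3 FPKM at 3.3 hpf, so 4.5 hpf held its highest mean of the 5 ages. tfap2c lost its call after rescaling to the spike-ins, with a pseudocount of 0.1 and in the 6-library fit.

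Genes of the enveloping layer had a median change of 1.08 as deposited, 0.59 after quantile normalization and 0.49 after rescaling to the spike-ins. Of 29 genes tested, 17 (58.6%) were called higher and 1 (3.45%) lower, against 14.2% and 10.3% of all genes tested. Under every scaling 13 remained higher. The layer's 5 keratin genes tested, which encode the intermediate filaments of this epithelium, were all called higher. krt4 measured 278, 461 and 286 FPKM at 4.5 hpf and 974, 1072 and 737 at 5.3 hpf (log2 change 1.46 ± 0.27, adjusted p = 0.00245). The values of krt8 were 318, 479 and 301 FPKM at 4.5 hpf and 922, 1087 and 778 at 5.3 hpf (log2 change 1.36 ± 0.21, adjusted p = 0.000943). krt5 measured 61.1, 139 and 50.0 FPKM at 4.5 hpf and 303, 280.4 and 222 at 5.3 hpf (log2 change 1.81 ± 0.35, adjusted p = 0.00299). In all 3 genes column 1 was the highest at 4.5 hpf and column 2 the lowest at 5.3 hpf. The library positions have the same order, but these genes entered their calculation. cyt1l, a type I keratin, rose from 6.53, 16.4 and 6.41 to 50.5, 55 and 37.8 FPKM (log2 change 2.28 ± 0.31). krt18 measured 491, 789 and 567 FPKM at 4.5 hpf and 1328, 1456 and 1082 at 5.3 hpf (log2 change 1.08 ± 0.33, adjusted p = 0.0283), a call made in the deposited scaling alone and lost on leaving out 1 library: krt18 (adjusted p up to 0.109 without 4.5 hpf columns 0 or 2 or 5.3 hpf columns 0 or 1). With a pseudocount of 0.1 krt18 also lost its call, and krt5 did in the 6-library fit.

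Genes for the layer's junctions and surface followed. Envoplakin (evpla) and periplakin (ppl) link keratins to the cell edge: evpla measured 22.9, 35.8 and 23.5 FPKM at 4.5 hpf and 82.3, 95 and 69.1 at 5.3 hpf (log2 change 1.57 ± 0.21, adjusted p = 0.000522). The ppl values were 18.5, 33.9 and 20.7 FPKM at 4.5 hpf and 92.7, 109 and 61.4 at 5.3 hpf (log2 change 1.81 ± 0.34, adjusted p = 0.00248). The desmosomal gene dspa rose from 6.23, 11.3 and 5.3 to 29.1, 29.3 and 20.3 FPKM (log2 change 1.70 ± 0.27). The claudins, which seal tight junctions, moved in both directions. cldne measured 125, 171 and 115 FPKM at 4.5 hpf and 290.0, 367 and 266 at 5.3 hpf (log2 change 1.17 ± 0.21, adjusted p = 0.00221). Its relative cldnf measured 8.52, 13.2 and 12.3 FPKM at 4.5 hpf and 33.4, 32.5 and 22.5 at 5.3 hpf (log2 change 1.30 ± 0.19, adjusted p = 0.000669). In the same list cldnd, whose mean was 1585 FPKM at 2.5 hpf, measured 277, 231 and 307 FPKM at 4.5 hpf and 112, 182 and 139.8 at 5.3 hpf (log2 change -0.92 ± 0.23, adjusted p = 0.0124). A maternal claudin outside the list, cldng, whose mean was 759.7 FPKM at 2.5 hpf, fell from 122, 109.8 and 169.6 to 49.4, 58.4 and 57.6 FPKM (log2 change -1.24 ± 0.14, adjusted p = 0.000257). grhl2a, a Grainyhead transcription factor of epithelia, rose from 9.28, 20.9 and 12.2 to 46.7, 52.8 and 37.2 FPKM (log2 change 1.68 ± 0.31). anxa1c, an annexin (chromosome 5, 67519125 to 67531098), measured 1.89, 3.3 and 1.39 FPKM at 4.5 hpf and 29.8, 72 and 17.1 at 5.3 hpf. The S100-type calcium-binding gene icn measured 1.47, 2.35 and 2.4 FPKM at 4.5 hpf and 13.1, 19.3 and 8.63 at 5.3 hpf. Their log2 changes were 3.47 ± 0.40 and 2.204 ± 0.33. Each gene of this paragraph but cldne, which lost its call after rescaling to the spike-ins and with a pseudocount of 0.1, was called under every scaling. cldnd lost its call in the 6-library fit and on leaving out 1 library: cldnd (adjusted p up to 0.0595 without 5.3 hpf column 0).

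The yolk syncytial layer feeds the embryo from the yolk. Of 22 of its genes tested, 8 (36.4%) were called higher and 1 (4.55%) lower, against 14.2% and 10.3% of all genes tested. The median change of the 22 was 0.30, which turned to -0.042 after rescaling to the spike-ins. mtp, the microsomal transfer protein that loads lipid onto lipoproteins, measured 34.2, 68.8 and 45.3 FPKM at 4.5 hpf and 168, 142 and 106 at 5.3 hpf (log2 change 1.50 ± 0.24, adjusted p = 0.00117). apoeb, an apolipoprotein, measured 631, 985 and 702 FPKM at 4.5 hpf and 1936, 2039.5 and 1491 at 5.3 hpf (log2 change 1.25 ± 0.30, adjusted p = 0.00908); its call held in 2 of the 5 scalings. tfa, transferrin, rose from 0.485, 0.211 and 0.198 to 9.8, 8.4 and 1.64 FPKM (log2 change 2.32 ± 0.40), with column 2 at 5.3 hpf much lower than the other 2. lcp1, an actin-bundling protein, rose from 19.7, 39.7 and 22 to 119, 146 and 84.1 FPKM (log2 change 2.09 ± 0.34). The sulfate carrier slc26a1 rose from 22.1, 40.4 and 31.5 to 84.8, 71.4 and 50.3 FPKM (log2 change 1.12 ± 0.22). mxtx2, the homeobox gene that specifies this layer, was the member called lower, at 89.3, 99.7 and 92.8 FPKM at 4.5 hpf and 49.4, 75.1 and 49.2 at 5.3 hpf (log2 change -0.72 ± 0.23, adjusted p = 0.0399). The mxtx2 call was made under every scaling but depended on single libraries: mxtx2 (adjusted p up to 0.134 without 4.5 hpf columns 0, 1 or 2 or 5.3 hpf columns 0 or 2). slc26a1 lost its call after rescaling to the spike-ins, mxtx2 with a pseudocount of 0.1 or without the filter, and tfa, slc26a1 and mxtx2 in the 6-library fit.

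Among adhesion and movement genes in the deposited values, 24 of 59 loci tested (40.7%) were called higher and 1 (1.69%) lower. Of all genes tested the shares were 14.2% and 10.3%. The median change of the list was 0.45 (after rescaling to the spike-ins 0.014), and 10 loci remained higher under every scaling. The cadherins cdh2 (N-cadherin) and cdh6 rose from 7.16, 13.6 and 9.88 to 30.3, 27.1 and 17.1 FPKM and from 1.08, 6.14 and 2.76 to 25.9, 18.4 and 8.97 FPKM. pcdh18b, a protocadherin, measured 5.18, 10.4 and 5.76 FPKM at 4.5 hpf and 31.5, 38.2 and 24.5 at 5.3 hpf (log2 change 2.03 ± 0.22, adjusted p = 0.000209). The ephrin ligands efnb2a and efnb2b, which separate tissues by repulsion, measured 3.02, 4.26 and 2.28 FPKM at 4.5 hpf and 18.5, 22.4 and 10.5 at 5.3 hpf and, in the same order, 1.12, 0.446 and 0.335 FPKM at 4.5 hpf and 6.62, 10.6 and 4.11 at 5.3 hpf. Their log2 changes were 2.08 ± 0.27 and 2.26 ± 0.27. In the planar polarity pathway, which steers convergence of cells, the receptor gene fzd2 rose from 1.35, 1.26 and 1.48 to 4.93, 6.36 and 3.38 FPKM (log2 change 1.29 ± 0.17). The polarity gene prickle1a rose from 5.5, 7.41 and 6.75 to 16.1, 17.2 and 10.3 FPKM (log2 change 1.01 ± 0.20). cdh2, cdh6 and prickle1a lost their calls in the 6-library fit, and prickle1a also after rescaling to the spike-ins.

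**Figure D3:**
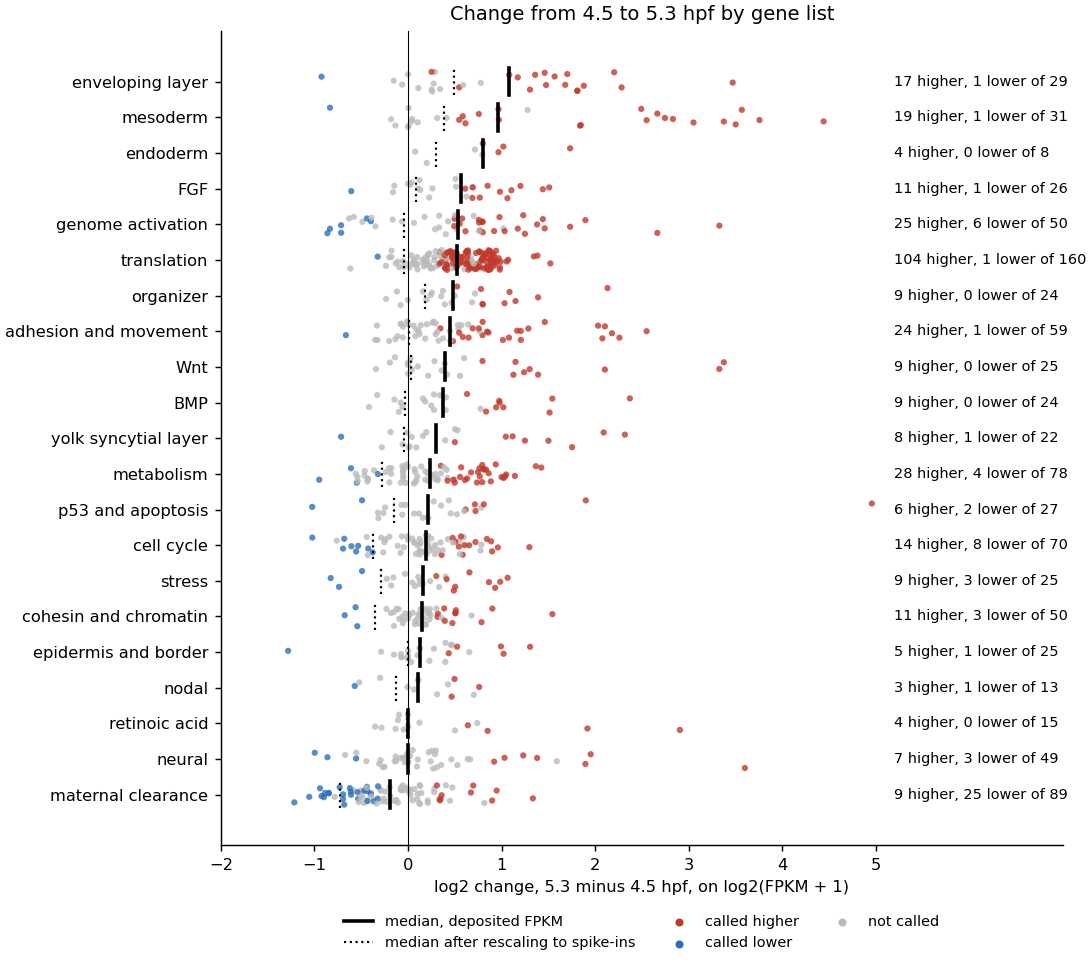
Each row is a gene list and each point 1 of its tested genes, placed by its log2 change from 4.5 to 5.3 hpf; red points were called higher, blue lower, and the counts stand at the right. The thick bar is the median in the deposited FPKM and the dotted bar the median after rescaling to the spike-ins, which for the enveloping layer are 1.08 and 0.49.

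The genes that activate the genome differed from one another. pou5f1, the POU-domain activator (chromosome 21, 11887949 to 11892809), measured 416, 566 and 411 FPKM at 4.5 hpf and 707, 733 and 623 at 5.3 hpf (log2 change 0.58 ± 0.12, adjusted p = 0.00469). Its call held in the deposited scaling alone, with a log2 change of -0.0089 after rescaling to the spike-ins. nanog, the homeobox activator (chromosome 24, 12738147 to 12743225), measured 793, 729 and 798 FPKM at 4.5 hpf and 436, 479 and 595 at 5.3 hpf; the groups did not overlap, but the change did not pass the threshold (log2 change -0.63 ± 0.23, adjusted p = 0.0654), although it did under the other 4 scalings. tbp, the TATA-binding protein, fell from 101, 92.9 and 90.1 to 50.0, 57.7 and 65.2 FPKM (log2 change -0.71 ± 0.11, adjusted p = 0.00114). blf, a zinc-finger gene switched on in the first wave of zygotic transcription, measured 421, 444 and 517 FPKM at 4.5 hpf and 280.1, 316 and 326 at 5.3 hpf (log2 change -0.58 ± 0.23, adjusted p = 0.0794). It too was called lower under the other 4 scalings. vgll4l, a cofactor of TEAD proteins, had risen from a mean of 18.1 FPKM at 3.3 hpf and now fell from 197, 234 and 232 to 118, 131 and 139 FPKM (log2 change -0.77 ± 0.21, adjusted p = 0.0196); its call depended on single libraries: vgll4l (adjusted p up to 0.0705 without 4.5 hpf column 2 or 5.3 hpf columns 0 or 1). Of 40 first zygotic transcripts tested, 22 (55%) were called higher and 3 (7.5%) lower, against 14.2% and 10.3% of all genes tested. The median change of the 40 was 0.66 (after rescaling to the spike-ins 0.077). pou5f1 lost its call in the 6-library fit and vgll4l with a pseudocount of 0.1.

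Over the whole transcriptome, genes were sorted into classes by their means at 2.5 and 10 hpf, outside the 2 ages compared. Libraries of those ages did enter the filter and the estimate of the spread behind each call. The step from 4.5 to 5.3 hpf is also a part of the change that sets the classes. More falls in the maternal class and more rises in the zygotic class are therefore expected by construction. Some zygotic genes, such as hoxb9a, passed the filter only through the 10 hpf libraries. Of 1419 maternal genes, at least 4-fold lower at 10 hpf, 564 (39.7%) were called lower and 17 higher between 4.5 and 5.3 hpf, with a median change of -0.50. Under every scaling 525 were lower, and without column 0 at 4.5 hpf 365 were called lower. Of 3320 zygotic genes, at least 4-fold higher at 10 hpf, 1181 (35.6%) were called higher and 17 lower, with a median of 0.42, and 304 were higher under every scaling. Among the 12609 remaining genes, 1269 (10.1%) were called higher and 1201 (9.52%) lower. The classes rest on 2.5 and 10 hpf alone, so the maternal class also holds genes that rose first. An example is mxtx2, with means of 4.23 FPKM at 2.5 hpf and 94 FPKM at 4.5 hpf. sox32, with means of 130 FPKM at 5.3 hpf and 0.142 FPKM at 10 hpf, was in neither class. The counts of the maternal class are therefore not counts of maternal clearance alone. Of the 17 maternal genes called higher, 2 were higher under every scaling. The 17 include foxh1 and pou5f1, and also vrtn, a regulator of vertebral number in mammals, at 196, 267 and 236 FPKM at 4.5 hpf and 447, 459 and 342 at 5.3 hpf (log2 change 0.83 ± 0.12, adjusted p = 0.000823). Also among them was stap2b, a signal adaptor, at 6.37, 7.51 and 4.14 FPKM at 4.5 hpf and 24.8, 28.4 and 18.6 at 5.3 hpf (log2 change 1.84 ± 0.23, adjusted p = 0.000359). bcl2l10, a Bcl-2 family member, rose from 127, 194 and 147 to 265, 239 and 207 FPKM (log2 change 0.62 ± 0.15), a call made in the deposited scaling alone and lost on leaving out 1 library: bcl2l10 (adjusted p up to 0.0501 without 4.5 hpf column 0). The zygotic genes called lower include vgll4l and bcl2l11, a pro-apoptotic Bcl-2 family member, at 2.94, 3.27 and 2.43 FPKM at 4.5 hpf and 1.13, 0.759 and 0.826 at 5.3 hpf (log2 change -1.02 ± 0.19, adjusted p = 0.00227). vrtn lost its call after rescaling to the spike-ins, bcl2l10 also in the 6-library fit, and bcl2l11 with a pseudocount of 0.1.

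**Figure D4:**
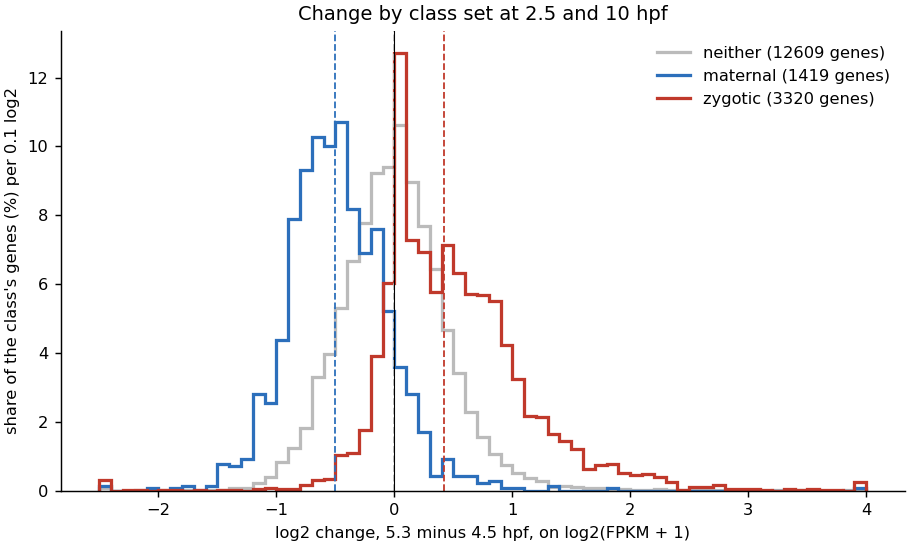
The share of genes in each 0.1-wide bin of log2 change from 4.5 to 5.3 hpf is drawn for 1419 maternal genes, 3320 zygotic genes and 12609 others, with dashed lines at the class medians and values beyond the axis added to the end bins. The maternal class is centred at -0.50 and the zygotic class at 0.42, and both overlap the remaining genes.

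In a list of egg transcripts, germ plasm genes and RNA decay factors, 25 of 89 genes (28.1%) were called lower and 9 higher, with a median change of -0.20 as deposited and -0.72 after rescaling to the spike-ins. Of its 37 oocyte and egg transcripts, 12 were called lower and 4 higher. Of its 37 deadenylation and decay factors, 9 (24.3%) were called lower and 5 (13.5%) higher, against 10.3% and 14.2% of all genes tested. btg4, an adaptor that in mouse recruits the CCR4-NOT deadenylase to maternal mRNA, had a mean of 432 FPKM at 2.5 hpf and measured 31.2, 27.2 and 39.4 FPKM at 4.5 hpf and 10.0, 23.4 and 9.91 at 5.3 hpf (log2 change -1.22 ± 0.28, adjusted p = 0.00788). Column 1 at 5.3 hpf was more than 2-fold above the other 2 libraries of its age. buc (bucky ball), the organizer of germ plasm, measured 69.6, 46.9 and 65.4 FPKM at 4.5 hpf and 27.9, 23.3 and 34.6 at 5.3 hpf (log2 change -1.06 ± 0.20, adjusted p = 0.00253). Tudor-domain genes of the germ plasm fell together: tdrd1 measured 18.5, 16.5 and 19.4 FPKM at 4.5 hpf and 8.57, 8.59 and 9.75 at 5.3 hpf (log2 change -0.94 ± 0.15, adjusted p = 0.00131). For tdrd7 the values were 23.3, 16.8 and 21.6 FPKM at 4.5 hpf and 13.1, 10.9 and 15.3 at 5.3 hpf (log2 change -0.61 ± 0.15, adjusted p = 0.009). The locus listed as TDRD6 (chromosome 17, 6372341 to 6377240) measured 11.7, 17.5 and 12.6 FPKM at 4.5 hpf and 2.92, 3.48 and 4.19 at 5.3 hpf (log2 change -1.71 ± 0.17, adjusted p = 0.000148). dnd (dead end), which protects germ cell transcripts, fell from 16.1, 13.3 and 21.6 to 12, 8.4 and 11.4 FPKM (log2 change -0.62 ± 0.17, adjusted p = 0.017), a call that depended on single libraries: dnd (adjusted p up to 0.0772 without 4.5 hpf column 2 or 5.3 hpf column 1). For nanos3 the groups did not overlap, at 43.8, 46.8 and 42.9 FPKM at 4.5 hpf and 28.8, 31.4 and 37.5 at 5.3 hpf, without a call (log2 change -0.45 ± 0.15, adjusted p = 0.0505). The RNA-binding gene dazl measured 43.8, 34.3 and 35.7 FPKM at 4.5 hpf and 24.1, 23.3 and 27.4 at 5.3 hpf (log2 change -0.58 ± 0.29, adjusted p = 0.17). Of 19 germ plasm and piRNA genes, 7 were called lower and 0 higher. ybx1, a maternal mRNA-binding protein that the zygotic genome also makes, went the other way in the deposited values, from 435, 608 and 437 to 857, 848 and 679.5 FPKM (log2 change 0.70 ± 0.13, adjusted p = 0.0023), and was called under no other scaling. btg4, tdrd7, dnd and ybx1 lost their calls in the 6-library fit.

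The other large falls were mostly of maternal transcripts without a role in the lists. lipg, endothelial lipase (chromosome 8, 33224977 to 33234084), measured 40.3, 29.7 and 37.6 FPKM at 4.5 hpf and 7.8, 12.3 and 18.1 at 5.3 hpf (log2 change -1.48 ± 0.24, adjusted p = 0.00117). ICA1, the islet cell autoantigen gene (chromosome 16, 50418180 to 50443550), measured 13.2, 10.7 and 11.8 FPKM at 4.5 hpf and 4.24, 4.26 and 4.13 at 5.3 hpf (log2 change -1.30 ± 0.13, adjusted p = 0.000148). mknk2a, a kinase that phosphorylates the cap-binding factor, measured 115, 95.6 and 111 FPKM at 4.5 hpf and 27.3, 42.3 and 73.4 at 5.3 hpf, with a wide spread at 5.3 hpf (log2 change -1.26 ± 0.28, adjusted p = 0.00604). pik3r5, a regulatory subunit of phosphoinositide 3-kinase, fell from 5.56, 5.47 and 5.92 to 1.35, 1.41 and 2.06 FPKM (log2 change -1.36 ± 0.16). Likewise FAM65C fell from 25.3, 23.1 and 29 to 8.21, 11.6 and 11.4 FPKM (log2 change -1.24 ± 0.14). Among genes that were not in the maternal class, wars2, the mitochondrial tryptophanyl-tRNA synthetase, fell from 16, 13.2 and 11 to 2.84, 4.47 and 5.54 FPKM (log2 change -1.46 ± 0.19). A regulator of mitochondrial fission, mtfr1, fell from 29.9, 25 and 33.5 to 9.45, 8.27 and 15 FPKM (log2 change -1.39 ± 0.19). The means of wars2 and mtfr1 at 10 hpf were 7.73 and 17.9 FPKM, above those at 5.3 hpf. Each of these falls was called under every scaling, as were 1653 of the 1782 genes called lower in the deposited values. The call of mknk2a was lost in the 6-library fit.

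The other 9 of the 20 largest falls follow. dhx57, a helicase-family gene, measured 37.7, 23.1 and 19.8 FPKM at 4.5 hpf and 17.9, 4.14 and 6.15 at 5.3 hpf (log2 change -1.60 ± 0.38, adjusted p = 0.00829). Its highest 5.3 hpf library lay just below its lowest 4.5 hpf library. calml4b, a calmodulin-like gene, fell from 10.2, 12.8 and 6.54 to 4.28, 2.86 and 1.76 FPKM (log2 change -1.46 ± 0.30). The adenylyl cyclase gene ADCY9 fell from 20.6, 11.1 and 19.5 to 5.35, 5.19 and 7.86 FPKM (log2 change -1.32 ± 0.22). btr16 measured 10.3, 11.7 and 7.54 FPKM at 4.5 hpf and 3.05, 3.08 and 3.81 at 5.3 hpf (log2 change -1.32 ± 0.20, adjusted p = 0.000891). KANK1, a regulator of cortical actin in mammals, fell from 33.4, 16.8 and 28 to 10.3, 7.39 and 11.2 FPKM (log2 change -1.31 ± 0.20). For abcb11a, of the bile salt exporter family, the values were 9.61, 11.6 and 8.4 FPKM at 4.5 hpf and 5.45, 1.2 and 5.51 at 5.3 hpf (log2 change -1.25 ± 0.33). FJX1 fell from 7.21, 4.35 and 7.35 to 0.573, 2.59 and 2.49 FPKM (log2 change -1.41 ± 0.41). The ubiquitin ligase gene RNF152 fell from 15.2, 18.5 and 9.69 to 3.52, 5.56 and 6.86 FPKM (log2 change -1.29 ± 0.33). mcf2l measured 12.5, 15.7 and 8.53 FPKM at 4.5 hpf and 3.18, 3.41 and 8.52 at 5.3 hpf (log2 change -1.20 ± 0.33), so that the groups all but touched. All 9 were called under every scaling, but in the 6-library fit btr16 alone kept its call. On leaving out 1 library, calls were lost for FJX1 (adjusted p up to 0.104 without 4.5 hpf columns 0 or 2 or 5.3 hpf column 0), RNF152 (adjusted p up to 0.0603 without 5.3 hpf column 0) and mcf2l (adjusted p up to 0.0828 without 4.5 hpf columns 0 or 1 or 5.3 hpf columns 0 or 1).

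Large rises also lay outside the patterning lists. add3b, an adducin of the membrane skeleton (chromosome 17, 20075471 to 20117683), measured 3.99, 8.41 and 4 FPKM at 4.5 hpf and 44.1, 52.1 and 30.7 at 5.3 hpf (log2 change 2.78 ± 0.25, adjusted p = 9.92e-05), and its mean at 10 hpf was 2.21 FPKM. nr0b2a, an orphan nuclear receptor (chromosome 16, 58399648 to 58404669), measured 7.21, 27.8 and 12.5 FPKM at 4.5 hpf and 132, 115 and 56.5 at 5.3 hpf (log2 change 2.71 ± 0.46, adjusted p = 0.00159). hkdc1, a hexokinase-related gene, rose from 0.534, 4.23 and 1.88 to 32.1, 24.6 and 10.4 FPKM (log2 change 2.90 ± 0.40). The urate oxidase gene uox rose from 0.376, 1.92 and 1.96 to 19, 17.7 and 8.78 FPKM (log2 change 2.75 ± 0.30). The neural homeobox gene pnx rose from 0, 6.67 and 0.594 to 13.3, 16.6 and 12.1 FPKM (log2 change 2.69 ± 0.53). The zinc-finger regulator prdm14 rose from 0.359, 3.56 and 0.392 to 14, 22.9 and 5.37 FPKM (log2 change 2.68 ± 0.47). pnx and prdm14 lost their calls in the 6-library fit.

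**Figure D5:**
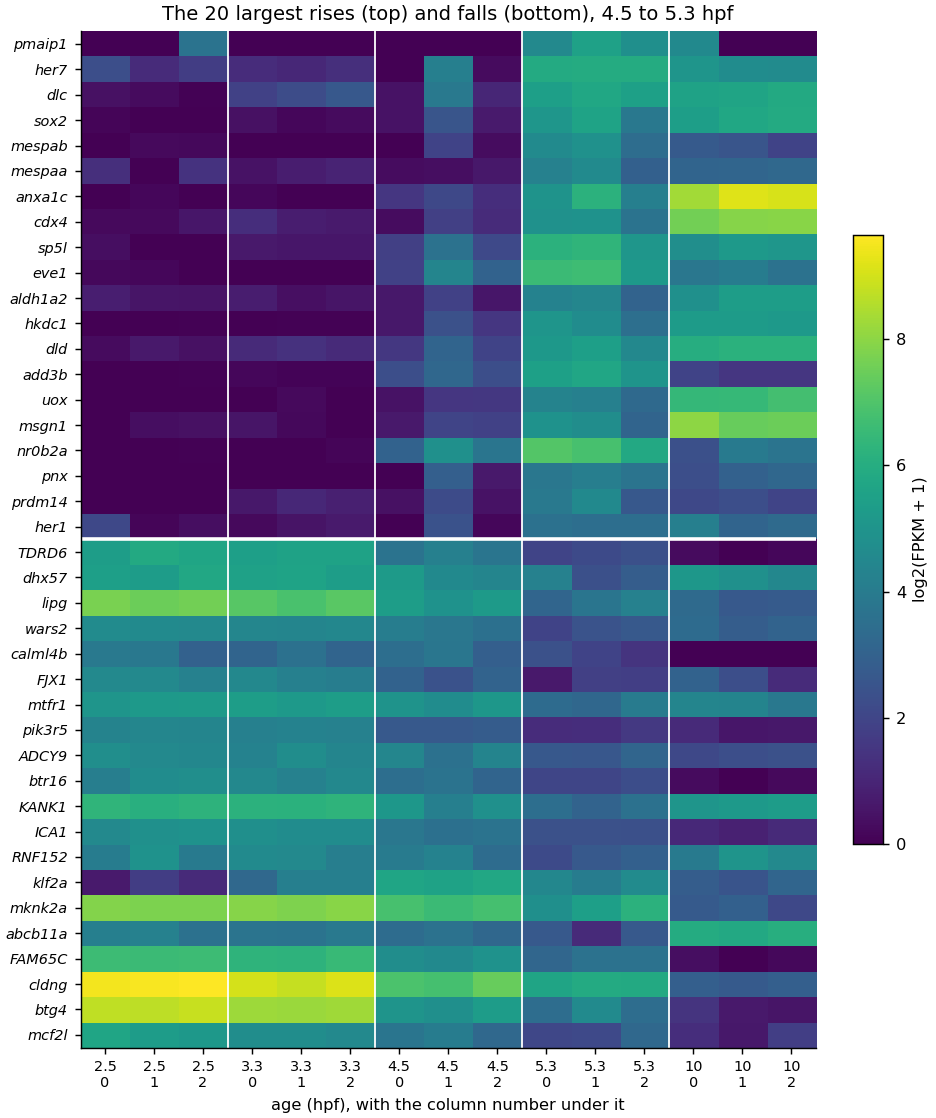
The heat map shows log2(FPKM + 1) in the 15 wild-type libraries, ordered by age and column, for the 20 largest rises (top) and the 20 largest falls (bottom) under the naming rule. In 17 of the 20 rises column 1 is the highest library at 4.5 hpf, as for her7 and dlc, and most of the falls start from high levels at 2.5 and 3.3 hpf.

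The largest rise by that rule, pmaip1, rested on very few fragments. The gene, which encodes a pro-apoptotic protein induced by p53, is a single locus of 236 bases (chromosome 10, 8746744 to 8746979) and was listed at 0 in all 3 libraries at 4.5 hpf, with 22.3, 44.6 and 27.3 FPKM at 5.3 hpf. Divided by what 1 read was worth in each library, estimated from low genes relative to column 0 at 4.5 hpf, the 5.3 hpf values became 18.6, 37.2 and 18.6, in the ratio 1 to 2 to 0.998. Such steps leave room for as few as 1 or 2 fragments per library, and no fold is given. Of 27 p53 and apoptosis genes tested, 6 (22.2%) were called higher and 2 (7.41%) lower, against 14.2% and 10.3% of all genes tested. sesn3, a sestrin of the stress response, measured 28.5, 45.3 and 40.5 FPKM at 4.5 hpf and 162, 180.0 and 98.8 at 5.3 hpf (log2 change 1.90 ± 0.28, adjusted p = 0.000776), with every 5.3 hpf library above every 4.5 hpf library and a call under every scaling.

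Of 70 cell cycle genes tested, 14 (20%) were called higher and 8 (11.4%) lower, against 14.2% and 10.3% of all genes, with a median of 0.19 (after rescaling to the spike-ins -0.37). ccna1, the maternal cyclin A, measured 641, 578 and 651 FPKM at 4.5 hpf and 357, 365 and 448 at 5.3 hpf (log2 change -0.68 ± 0.093, adjusted p = 0.000552). The mitotic cyclin B gene ccnb2 fell from 369, 328 and 356 to 225, 245 and 257 FPKM (log2 change -0.53 ± 0.091). gmnn (geminin), the inhibitor of replication licensing, fell from 689, 532 and 700.0 to 385, 474 and 443 FPKM (log2 change -0.55 ± 0.12). In the MCM helicase, which unwinds DNA at replication origins, mcm3l, the maternal form of subunit Mcm3, measured 43.1, 41.2 and 46.8 FPKM at 4.5 hpf and 19, 21 and 23 at 5.3 hpf (log2 change -1.02 ± 0.17, adjusted p = 0.00155). By contrast mcm3 measured 13.3, 22.4 and 16 FPKM at 4.5 hpf and 33.5, 33.9 and 29.1 at 5.3 hpf (log2 change 0.89 ± 0.18, adjusted p = 0.00334). The gene mcm6 measured 18.6, 32.5 and 34.3 FPKM at 4.5 hpf and 76.9, 83.7 and 51.1 at 5.3 hpf (log2 change 1.30 ± 0.25, adjusted p = 0.00266). The mcm3 call was lost after rescaling to the spike-ins, and the other calls of this paragraph were made under every scaling. gmnn, mcm3 and mcm6 lost their calls in the 6-library fit.

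The translation apparatus rose in the deposited values and less or not at all under other scalings. Of 62 cytosolic ribosomal protein genes, 56 (90.3%) were called higher and 0 lower, against 14.2% and 10.3% of all genes tested. The median change of the 62 was 0.79, and after rescaling to the spike-ins it was 0.21. Under every scaling 0 were called higher, and in at least 4 of the 5 scalings 11 were; limma gave 61 an unadjusted p below 0.05 in the deposited values. rps4x measured 149.8, 207 and 171 FPKM at 4.5 hpf and 352, 417 and 275 at 5.3 hpf (log2 change 0.97 ± 0.18, adjusted p = 0.00208). Of 62 ribosome biogenesis genes 32 were called higher and 0 lower. nop2, a nucleolar RNA methyltransferase, measured 15.1, 19.3 and 14.7 FPKM at 4.5 hpf and 55.3, 56.5 and 36.5 at 5.3 hpf (log2 change 1.52 ± 0.31, adjusted p = 0.00377). The nucleostemin gene gnl3 measured 22.5, 40.7 and 36.3 FPKM at 4.5 hpf and 87.3, 98.6 and 67.3 at 5.3 hpf (log2 change 1.35 ± 0.24, adjusted p = 0.00189). Both were called under every scaling. Of 36 initiation and elongation factor genes 16 were called higher and 1 lower. eef1a1l1, elongation factor 1 alpha, rose from 3003, 4007 and 3264 to 6156, 7248 and 5591 FPKM (log2 change 0.89 ± 0.16). The cap-binding factor gene eif4ea rose from 5.71, 7.01 and 7.68 to 23.7, 21.9 and 13.7 FPKM (log2 change 1.38 ± 0.22). rps4x and eef1a1l1 lost their calls after rescaling to the spike-ins, and eef1a1l1 also in the 6-library fit.

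Of 56 genes of oxidative phosphorylation, 26 (46.4%) were called higher and 0 lower in the deposited values, with a median of 0.37 that became -0.14 after rescaling to the spike-ins. cox7c, of cytochrome c oxidase, measured 123, 194 and 139.7 FPKM at 4.5 hpf and 304, 359 and 247 at 5.3 hpf (adjusted p = 0.00637). The complex I gene ndufa12 measured 7.68, 6.43 and 1.78 FPKM at 4.5 hpf and 10.4, 16.4 and 14.5 at 5.3 hpf (log2 change 1.37 ± 0.35, adjusted p = 0.0136). Leaving out 1 library ended the call of ndufa12 (adjusted p up to 0.0569 without 5.3 hpf column 1). Of 22 glycolysis and lactate genes, 2 (9.09%) were called higher and 4 (18.2%) lower, against 14.2% and 10.3% of all genes tested. pgk1, phosphoglycerate kinase, fell from 38.1, 27.6 and 35.4 to 14.6, 14.5 and 22.4 FPKM (log2 change -0.95 ± 0.19, adjusted p = 0.00389). The triosephosphate isomerase gene tpi1a fell from 25.2, 19.5 and 28.6 to 16.2, 15.3 and 15 FPKM (log2 change -0.61 ± 0.15). hk1, a hexokinase, rose from 0.76, 1.47 and 1.04 to 6.62, 4.88 and 2.82 FPKM (log2 change 1.43 ± 0.22, adjusted p = 0.00105). cox7c and ndufa12 lost their calls after rescaling to the spike-ins, cox7c also after quantile normalization, and both of them, pgk1 and tpi1a in the 6-library fit.

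The transcripts of both genes that the rest of the series targets were measured too. rad21a, the cohesin subunit gene (chromosome 16, 51486520 to 51734308), measured 132, 158 and 139 FPKM at 4.5 hpf and 208, 210.0 and 191 at 5.3 hpf (log2 change 0.51 ± 0.12, adjusted p = 0.00717). The gene ctcf (chromosome 18, 22066702 to 22074092) measured 367, 452 and 378 FPKM at 4.5 hpf and 499, 517 and 473 at 5.3 hpf (log2 change 0.32 ± 0.085, adjusted p = 0.0159). Both calls held in the deposited scaling alone, and after rescaling to the spike-ins the log2 changes were -0.079 and -0.27. The ctcf call also depended on single libraries: ctcf (adjusted p up to 0.0753 without 4.5 hpf columns 0 or 2 or 5.3 hpf column 1). hmga1a, an abundant chromatin protein, rose from 1189.8, 1544 and 1144 to 2307, 2383 and 1961 FPKM (log2 change 0.79 ± 0.13), a call lost after rescaling to the spike-ins. Of 50 cohesin and chromatin loci tested, 11 (22%) were called higher and 3 (6%) lower, against 14.2% and 10.3% of all genes tested. ctcf was not called in the 6-library fit either.

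The same interval was also sampled in the morpholino libraries, which share no library with the wild type. Of the genes called higher in wild type, 96.9% of 2439 tested also had a positive change from 4.5 to 5.3 hpf in the Rad21 morpholino libraries and 97.2% of 2440 in the CTCF morpholino libraries, against 52.2% and 52.6% of all genes. Of the genes called lower, 95.3% of 1779 and 93.7% of 1781 had a negative change, against 46.9% and 46.4% of all genes. Fewer were called in the same direction there. In the Rad21 libraries 1895 of the genes were called higher and 976 lower, and in the CTCF libraries 1112 and 520. The share of all genes called in those libraries was not worked out, so these counts have no background beside them. Of the genes called higher in wild type, 5 were called lower in the Rad21 libraries and 0 in the CTCF libraries. Of those called lower in wild type, 0 were called higher in either set. These signs and calls were taken in the deposited scaling alone. In the Rad21 set, 1 library titled 3.3 hpf carries an age label of 4.5 hpf and 1 titled 4.5 hpf the reverse; the columns were taken by their names.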

How the data were processed

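The authors deposited 1 table of FPKM values for 45 libraries. Per the submitters' processing notes, reads were aligned with TopHat2 2.0.9 and quantified with Cufflinks 2.2.0 and Cuffdiff on the Zv9 (danRer7) assembly. Per the labels' protocols, libraries were stranded and ribosome-depleted. Columns name the group and a number, not the replicate letters of the sample titles.

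From these values log2(FPKM + 1) was computed for genes with at least 1 FPKM in at least 3 of 15 wild-type libraries, leaving out the 92 spike-in rows. limma 3.58.1 (R 4.3.3, trended empirical Bayes) was fitted with 1 mean per age, and Benjamini-Hochberg adjustment ran over all 17348 genes. A fold change on this scale understates the change of low genes. Whole reads could not be recovered, so no count test was run. Figures were drawn with matplotlib 3.10.9.

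Genes were compared through 24 lists of 1130 symbols, of which 941 were in the table and 872 were tested. The text names list members, the 20 largest rises and 20 largest falls (called, libraries not overlapping, at least 5 FPKM in the higher age, single named loci), and sox2, rad21a, ctcf, pou5f1 and nanog; examples of the maternal and zygotic classes were chosen after their values were seen. The members and lists were chosen with earlier results of these data known. Alternatives were another pseudocount, 2 filters, 4 rescalings, 6 libraries only, blocks, libraries left out and other class cuts.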

Additional observations from a re-analysis of the deposited data

How the results depend on the processing

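The counts depended most on scaling and on how many libraries estimated the spread. After rescaling to a sum of 1e6, 874 maternal genes were lower and 611 zygotic genes higher. Rescaling without small RNAs gave 883 and 620. Rescaling to the spike-ins, chosen after seeing the data, gave 934 and 304. The counts of all genes higher and lower were 867 and 3558, 868 and 3775, and 409 and 3938 in that order. With only the 6 libraries of the 2 ages, 1357 genes were called (901 higher and 456 lower), 187 of them maternal and lower and 488 zygotic and higher. Leaving out 1 library gave 2564 to 4592 calls, 1517 to 2673 higher, 1047 to 1919 lower, 365 to 585 maternal and lower, and 822 to 1246 zygotic and higher. Cutting the classes at 2-fold gave 1194 maternal genes lower and 1788 zygotic genes higher. Pseudocount 0.1, no filter, a filter at 5 FPKM, quantile normalization, classes from 3.3 against 10 hpf, the spike-in block and both outlying libraries left out kept these counts within 1.5 times.

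The numbers of the columns are shared across ages, but nothing says that they pair pools. Deviations of same-numbered libraries correlated at -0.0717, 0.0883 and -0.0182, and those of differently numbered libraries at -0.0849 to 0.115. The value of 0.115 belonged to column 0 at 4.5 hpf and column 2 at 5.3 hpf, which share a spike-in set. The other pairs that share a set correlated at -0.0448 to 0.0883. With 3 libraries per age, these values cannot settle whether pools were paired by column number. With a replicate block by that number, limma called 4336 genes in the 15 libraries and 0 in the 6 libraries, where 4740 had an unadjusted p below 0.05; all counts above were then 0.

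Of the 135 called genes named in the text, 115 kept the call with each library left out in turn, 105 under all 5 scalings, 123 with a pseudocount of 0.1 and 79 with only the 6 libraries. Signs turned as follows. After rescaling to 1e6, the log2 change was -0.043 for bmp2b, -0.0066 for ctcf, -0.24 for ndr1 and -0.28 for wnt8a. After quantile normalization it was -0.088 for ctcf and -0.083 for wnt8a. Without small RNAs in the sum it was -0.052 for bmp2b, -0.015 for ctcf, -0.25 for ndr1 and -0.29 for wnt8a. After rescaling to the spike-ins it was -0.30 for bmp2b, -0.077 for chd, -0.27 for ctcf, -0.084 for foxh1, -0.49 for ndr1, -0.0089 for pou5f1, -0.079 for rad21a and -0.53 for wnt8a. Leaving out 1 library gave ndr1 values from -0.066 to 0.24 and wnt8a values from -0.030 to 0.11. The cause was not tested.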
